A study of Mus musculus with 12 samples.

Results

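Type I interferon-stimulated effector genes were followed in SIM-A9, a microglial cell line from C57BL/6 mice. The set was a named list of 47 mouse genes whose protein products act against viruses or regulate that defence, found by symbol among the 30994 genes of each count table, and all 47 were matched. Every culture first received 10 µM polymyxin B, which captures bacterial endotoxin, for 1 h in serum-free medium. Cells then had 1 h with 10 µM C13, named in the title as a MOK inhibitor, or with DMSO, its solvent. TDP-43 aggregates or sham aggregates followed at 5 µg/mL, for 4 h in all, with 100 µM 4-thiouridine present in the last 90 min. TDP-43 is an RNA-binding protein that aggregates in motor neuron disease. The 4 groups were C13 with TDP-43, C13 with sham, DMSO with TDP-43 and DMSO with sham, each with 3 libraries that the labels call biological replicates of this 1 cell line. Since no label names a shared day or separate passage, p-values measure the spread between these samples.

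Type I interferons bind a receptor made of IFNAR1 and IFNAR2, whose kinases JAK1 and TYK2 activate transcription factors. Together with IRF9 these bind the interferon-stimulated response element, a short DNA motif near the start of many antiviral genes. Some of these genes, among them Rsad2, Cxcl10 and Isg15, can also be switched on directly by IRF3 or IRF7 after nucleic acids or bacterial products are sensed. Microglia, the resident macrophages of the brain, use the same pathway.

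Libraries were made from mRNA 3′ ends, and reads carrying the base changes left by 4-thiouridine were counted apart as nascent. Total counts ran from 17436397 to 41779882 reads per library and nascent counts from 552042 to 2722812. Of the 12 microglia markers, 11 had reads and 9 had reads in every library, with a summed level of 953 to 1230.2 CPM (reads scaled to library size) in C13 with TDP-43, 834 to 1299 CPM in C13 with sham, 831 to 1020.0 CPM in DMSO with TDP-43 and 935 to 1128 CPM in DMSO with sham. Fcrls was at 0 in all libraries, while P2ry12 and Tmem119 had no more than 12.6 and 1.45 CPM, so the markers of resting brain microglia were near absent. Astrocyte, neuron, lymphocyte and fibroblast markers summed to no more than 4.17 CPM in any library. Oligodendrocyte markers ran from 21.0 to 29.4 CPM in C13 with TDP-43, 10.1 to 23.5 CPM in C13 with sham, 4.45 to 46.4 CPM in DMSO with TDP-43 and 10.7 to 26.8 CPM in DMSO with sham. The sum was nearly all Mbp, a myelin gene, with Mog and Mag at 0; its part in the results was not tested. DMSO with TDP-43 replicate 3 and C13 with sham replicate 3 stood apart from the other 10 libraries on the first principal component, at -91.7 and -93.3 in total RNA against 1.73 to 31.0 for the rest. Their shares of mitochondrial ribosomal RNA were 2.47% and 3.70%, against 1.17% to 2.52%. Values that moved by over 1.5 times without them are given with both values. In such bulk samples, fewer cells of a type and less RNA per cell cannot be told apart.

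The promoters show what many members share apart from their reads. RefSeq promoter windows of GRCm38.p6, from 250 bases before to 50 bases after a gene's start, were given for 35 members. The core of the interferon-stimulated response element was searched as GAAANNGAA on both strands, with N standing for any base and overlapping matches counted. It stood in the window of 23 of the 35 members (65.7%), against 2638 of 27025 genes with a window (9.76%). Requiring one more A after the match left 20 members (57.1%) and 1079 genes (3.99%). The windows below were selected from those that hold a match, with the matches in capitals and each read 5′ to 3′ on the gene's strand. A match read on the other strand appears as its reverse complement.
Isg15 (chr4:156200846-156200926, strand -): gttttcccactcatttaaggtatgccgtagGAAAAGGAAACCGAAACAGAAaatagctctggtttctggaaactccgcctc
Rsad2 (chr12:26456533-26456601, strand -): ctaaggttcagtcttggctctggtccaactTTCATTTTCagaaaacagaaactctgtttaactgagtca
Cxcl10 (chr5:92349064-92349132, strand -): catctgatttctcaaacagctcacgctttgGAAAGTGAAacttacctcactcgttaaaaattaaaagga
Ifit1 (chr19:34640750-34640843, strand +): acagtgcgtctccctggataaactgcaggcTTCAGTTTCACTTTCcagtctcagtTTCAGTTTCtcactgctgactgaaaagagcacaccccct
Ifit3 (chr19:34583344-34583465, strand +): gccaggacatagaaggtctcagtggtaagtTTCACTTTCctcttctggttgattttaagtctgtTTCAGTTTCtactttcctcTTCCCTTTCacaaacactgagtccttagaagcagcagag
Ifit3b (chr19:34607740-34607861, strand +): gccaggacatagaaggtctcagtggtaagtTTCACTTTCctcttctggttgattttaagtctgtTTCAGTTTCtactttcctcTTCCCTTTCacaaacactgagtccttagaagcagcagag
Oas3 (chr5:120777690-120777764, strand -): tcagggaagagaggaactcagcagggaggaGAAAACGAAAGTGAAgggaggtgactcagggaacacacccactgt
In Isg15 the matches overlap and begin 78, 72 and 66 bases before the start. The single matches of Cxcl10 and Rsad2 lie 213 and 119 bases before it. Ifit3 and Ifit3b carry the same stretch. Members with a window and no match were Cmpk2, Dtx3l, Herc6, Ifi35, Ifi47, Ifit2, Isg20, Lgals3bp, Oasl1, Oasl2, Slfn2 and Xaf1. A match is a description of the letters, not of binding, and its absence concerns this window only. Dhx58, Ifi204, Ifi27, Ifi27l2a, Mx1, Mx2, Oas2, Parp9, Parp14, Rtp4, Usp18 and Zbp1 were not in the promoter table.

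**Figure D1:**
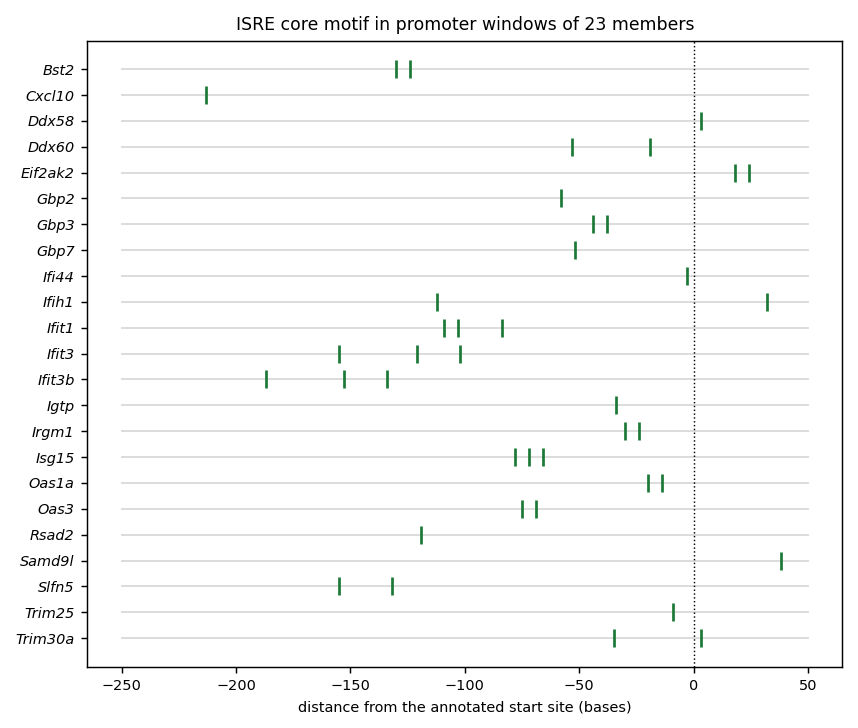
Position of GAAANNGAA matches (marks) relative to the gene's start at 0 (x axis, bases) in the RefSeq promoter windows of the members that hold one (y axis), drawn from 250 bases before to 50 after. In Isg15 the 3 matches overlap, while Cxcl10 has 1 match far from the start.

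Levels in total RNA spanned a wide range. Ifi27, a small mitochondrial membrane protein, averaged 583 CPM over the 12 libraries, Trim25, a ubiquitin ligase that assists the RNA sensor RIG-I, 482 CPM, and Bst2, a membrane protein that tethers budding virions, 306 CPM. Rsad2 followed with 96.0 CPM and Dtx3l with 78.0 CPM. Since 3′-end reads do not grow with transcript length, these levels were not divided by length. At the other end Ddx60 had 0 reads, and Zbp1, Mx1, Mx2, Herc6 and Trim30a had 7 to 93 reads over all libraries and were not tested. The other 41 members passed the filter on low counts. In nascent RNA 20 members passed, 6 had 0 reads (Herc6, Dhx58, Ddx60, Mx1, Gbp3 and Trim30a), and the remaining members held between 1 and 99 reads. The order differed in nascent RNA: Rsad2 led with 631 CPM, before Trim25 with 474, Ifi27 with 376, Oasl1 with 239.8 and Bst2 with 225 CPM, the last at the same level as Slfn2.

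Pooled over all libraries, nascent reads were 2.62% of total reads in the median gene with at least 500 total reads, and 8.05% at the 95th percentile of those 10115 genes. Of the 32 members with that many reads, 25 lay above the median and 6 above the 95th percentile, and their own median was 3.84%. Isg15, a ubiquitin-like protein joined to other proteins, had 19.0% (95% Clopper-Pearson interval 18.3% to 19.7%), and Rsad2, which makes a chain-terminating nucleotide, had 18.4% (18.0% to 18.8%). Oasl1 (13.3%), Rtp4 (12.5%), Ifit1 (11.7%) and Slfn2 (9.46%) were the others above 8.05%. These intervals cover counting error only. The most abundant members were at the ordinary level, with 2.65% for Trim25, 2.59% for Bst2 and 2.09% for Ifi27. Oas1a, Oas2 and Ddx58 were lower, with 1.11%, 1.12% and 0.883%. Labelling needs thymidine positions in the sequenced end. The last bases of Isg15 and Slfn2 held 20.8% and 21.6% T and those of Rsad2 31.6%. The part of T content in the nascent shares was not tested. The shares by group are means of the library percents, not pooled reads. For Isg15 the mean was 21.4% in C13 with TDP-43, 9.68% in C13 with sham, 16.2% in DMSO with TDP-43 and 19.8% in DMSO with sham. Its lowest library, C13 with sham replicate 3, had 0.654%. The share of Rsad2 was 22.8% in C13 with TDP-43, 17.8% in C13 with sham, 16.5% in DMSO with TDP-43 and 16.3% in DMSO with sham. Over all genes the nascent share of a library also varied, from 2.44% to 3.30% in C13 with TDP-43, 1.88% to 3.20% in C13 with sham, 2.13% to 3.35% in DMSO with TDP-43 and 2.74% to 7.11% in DMSO with sham, and its part in these shares was not tested.

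**Figure D2:**
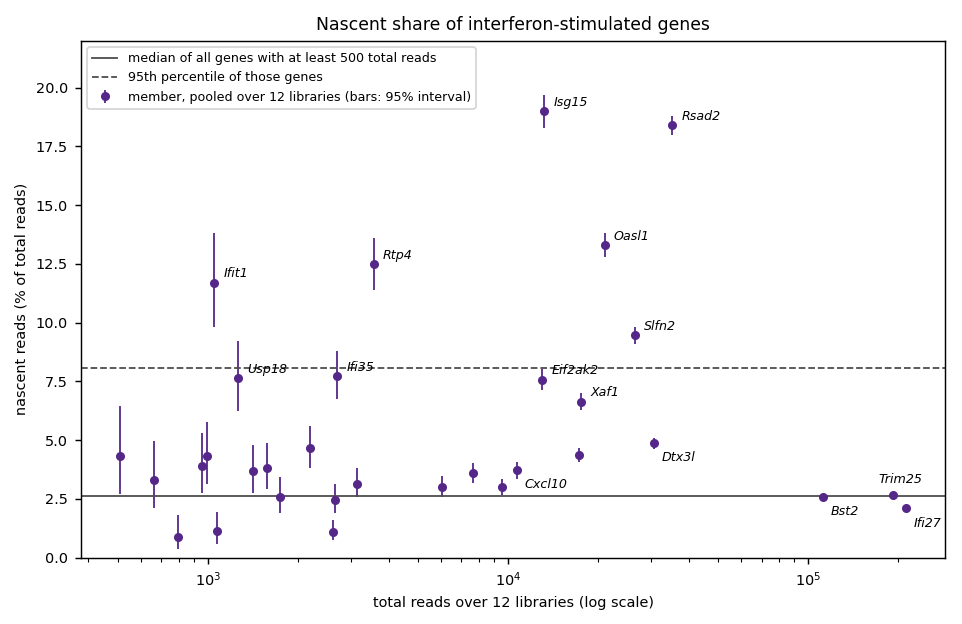
Nascent reads as a percent of total reads (y axis) against total reads over 12 libraries (x axis, log scale) for the 32 members with at least 500 total reads, with 95% Clopper-Pearson intervals. The lines give the median (2.62%) and 95th percentile (8.05%) of 10115 genes. Isg15 and Rsad2 stand highest, and the 3 most abundant members lie close to or below the median line.

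The first comparison asked how TDP-43 differed from sham averaged over both drugs. Antiviral genes had higher values with TDP-43, led in total RNA by Cxcl10, Rsad2 and Rtp4, though by edgeR no member passed the threshold over all genes. In total RNA 34 of the 41 tested members had higher values and their median log2 fold change was 0.53, beside -0.01 and 48.8% higher over all 11827 genes tested. Without DMSO with TDP-43 replicate 1 the members' median was 0.30. At an adjusted p of 0.05, edgeR's quasi-likelihood test called 0 members and 0 (0%) of all genes, of which 560 had an unadjusted p under 0.05 and 33 were called by DESeq2. An unadjusted p under 0.05 with a higher value was found for 9 members (Cxcl10, Dtx3l, Isg15, Oas3, Oasl1, Parp9, Rsad2, Rtp4 and Samd9l), against 2.39% of all genes. DESeq2 called 3 members, Cxcl10, Rsad2 and Rtp4. Without the filter on low counts edgeR called 3, Cxcl10, Rsad2 and Trim25, though the Trim25 libraries overlapped in each drug.

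Cxcl10, a chemokine that draws activated T cells, was the 1 member whose 6 TDP-43 libraries all exceeded its 6 sham libraries in total RNA, a pattern found higher in 0.135% of all genes. Its level was 22.7, 44.1 and 68.9 CPM in C13 with TDP-43, 13.3, 6.15 and 11.1 CPM in C13 with sham, 32.1, 27.4 and 48.9 CPM in DMSO with TDP-43 and 16.7, 19.6 and 20.7 CPM in DMSO with sham. The averaged log2 fold change was 1.54 (edgeR, SE 0.28, adjusted p = 0.325). Total Rsad2 was 146, 120.3 and 95.1 CPM in C13 with TDP-43, 41.8, 61.3 and 51.9 CPM in C13 with sham, 173, 100 and 124 CPM in DMSO with TDP-43 and 96.8, 78.6 and 63.1 CPM in DMSO with sham. Within each drug its TDP-43 libraries lay above the sham libraries, and the averaged log2 fold change was 0.98 (edgeR, SE 0.18, adjusted p = 0.325).

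Rtp4, a chaperone of membrane receptors that also limits viral replication, had 8.52, 9.67 and 14.7 CPM in C13 with TDP-43, 4.04, 2.12 and 2.67 CPM in C13 with sham, 18.6, 11.8 and 19.2 CPM in DMSO with TDP-43 and 12.4, 8.01 and 3.26 CPM in DMSO with sham in total RNA. Its libraries did not overlap in C13 and did in DMSO, with an averaged log2 fold change of 1.49 (edgeR, SE 0.35, adjusted p = 0.828). Rtp4 shares exons on the same strand with Gm45338, and all its counts were even, as were those of Oasl1, Oas2, Trim25, Mx1, Mx2, Irgm1 and Parp9, while those of Gbp3 and Ifi47 were multiples of 3. Such a common factor was found in 1917 of 9932 genes with a mean over 50 reads, so these counts may not be single reads and their counting error is understated.

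**Figure D3:**
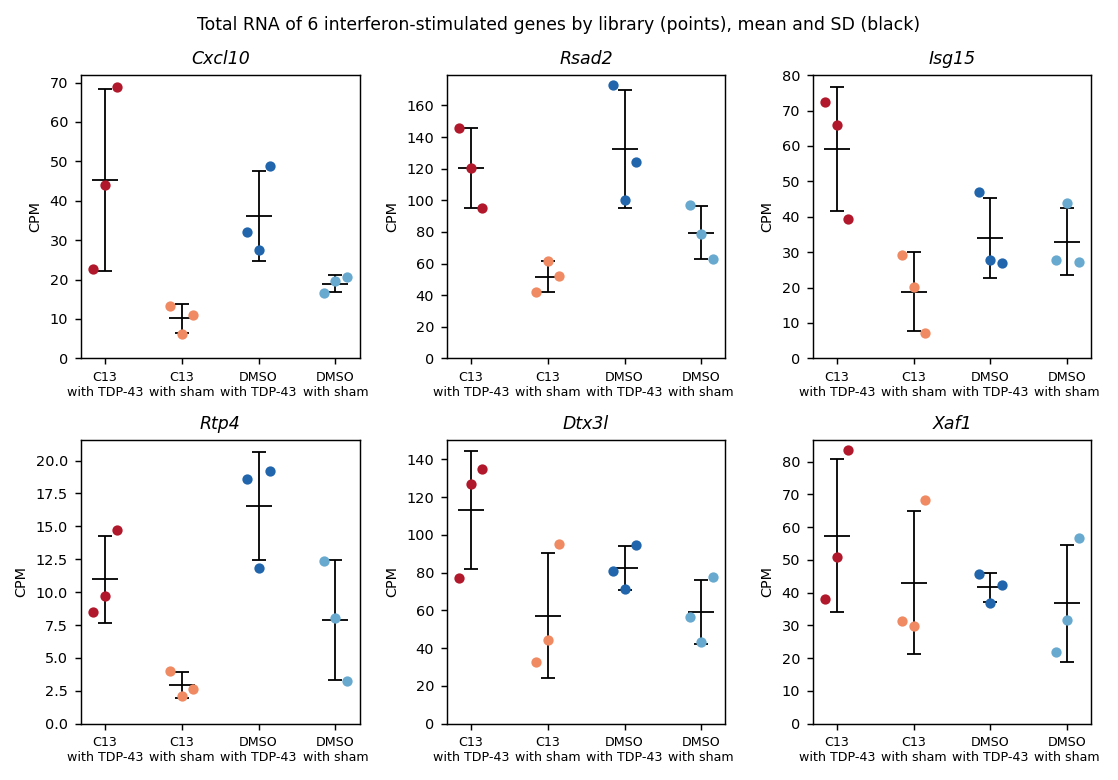
Total RNA level (y axis, CPM) of Cxcl10, Rsad2, Isg15, Rtp4, Dtx3l and Xaf1 in every library (points) of the 4 groups (x axis), with mean and SD in black (n = 3). Cxcl10 and Rsad2 lie higher with TDP-43 within each drug, while Isg15 separates only in C13, where C13 with sham is at 7.03 to 29.2 CPM.

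Nascent RNA gave wider spreads. Of the 20 tested members 15 had higher values with TDP-43, with a median log2 fold change of 0.74, beside -0.02 and 49.1% over all 7078 genes. No member was called by edgeR, against 0.0141% of all genes (1 gene), and DESeq2 called 13 genes and no member. Dtx3l, Isg15, Rsad2, Rtp4 and Xaf1 had an unadjusted p under 0.05 and a higher value, 5 members against 3.21% of all genes. Nascent Rsad2 was 900.3, 960.3 and 807 CPM in C13 with TDP-43, 254, 479.5 and 462 CPM in C13 with sham, 1025, 381 and 1337 CPM in DMSO with TDP-43 and 434, 143 and 388 CPM in DMSO with sham. Only in DMSO did its groups overlap, through the single library at 381 CPM. The averaged log2 fold change was 1.33 (edgeR, SE 0.39, adjusted p = 0.832). Nascent Xaf1, the product of which binds the apoptosis inhibitor XIAP, had 90.4, 56.7 and 118 CPM in C13 with TDP-43, 15.2, 0 and 11.9 CPM in C13 with sham, 1.67, 199 and 655 CPM in DMSO with TDP-43 and 16.5, 54.1 and 78.3 CPM in DMSO with sham. Its DMSO with TDP-43 libraries spanned the whole range, and the averaged log2 fold change of 2.90 (edgeR, SE 0.93, adjusted p = 0.832) was 2.28 without the 2 libraries that stood apart. In total RNA Xaf1 had a log2 fold change of 0.30 (SE 0.28).

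**Figure D4:**
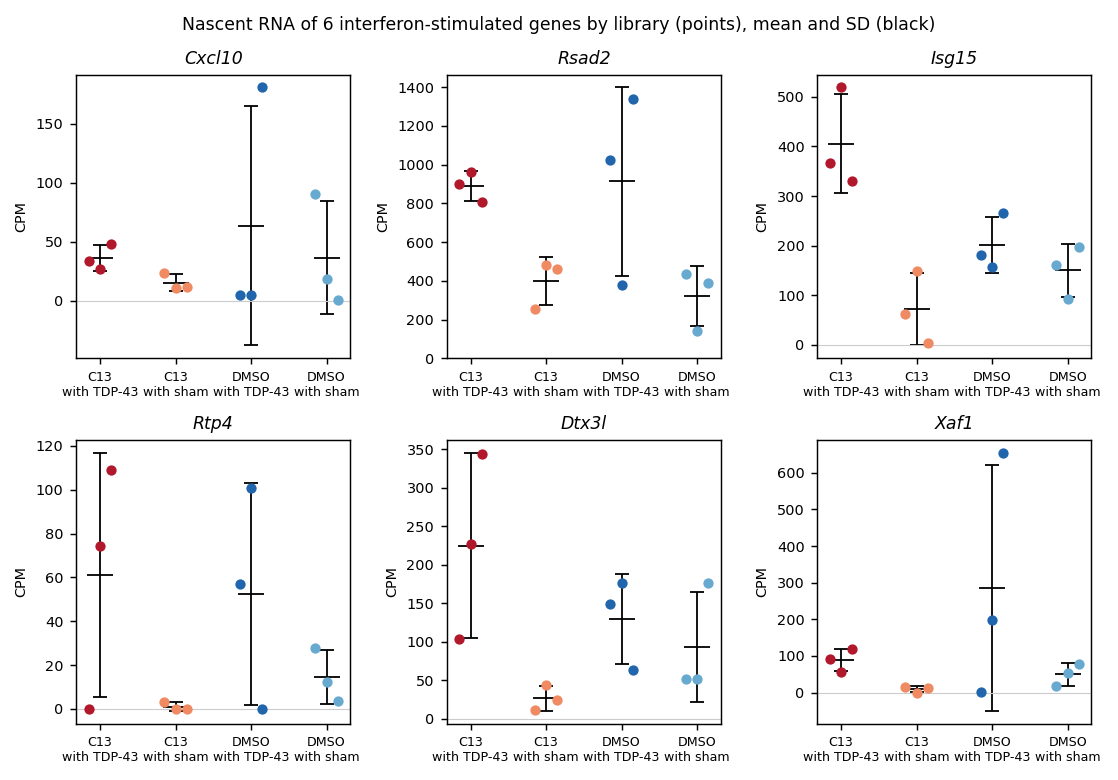
Nascent RNA level (y axis, CPM) of the same 6 genes in every library (points) of the 4 groups (x axis), with mean and SD in black (n = 3; an SD larger than the mean reaches below 0). Isg15 and Dtx3l have their lowest means in C13 with sham, and Xaf1 in DMSO with TDP-43 runs from 1.67 to 655 CPM.

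The response to TDP-43 was then read in cells given C13. Here Cxcl10, Rsad2, Isg15 and Rtp4 had higher values in every TDP-43 library than in every sham library, and the members' median log2 fold change was 0.78 in total RNA (35 of 41 higher), beside -0.01 and 49.2% over all genes. By edgeR 0 members and 0 (0%) of all genes were called, with 1045 genes at an unadjusted p under 0.05 and 99 called by DESeq2, among them Cxcl10, Isg15, Rsad2 and Rtp4. Without the filter on low counts edgeR called Cxcl10, Dtx3l, Isg15, Rsad2 and Trim25, though the libraries of Dtx3l and Trim25 overlapped. An unadjusted p under 0.05 with a higher value was found for 8 members (Cxcl10, Dtx3l, Isg15, Rsad2, Rtp4, Samd9l, Slfn2 and Trim25), against 5.12% of all genes. The libraries of 8 members did not overlap and lay higher with TDP-43 (Cxcl10, Ifit3, Ifit3b, Isg15, Isg20, Rsad2, Rtp4 and Samd9l), against 6.69% of all genes. For total Cxcl10 the log2 fold change was 2.15 (edgeR, SE 0.41, adjusted p = 0.226) and total Rsad2 1.22 (edgeR, SE 0.26, adjusted p = 0.226).

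Total Isg15 was 72.4, 65.8 and 39.3 CPM in C13 with TDP-43, 29.2, 20.1 and 7.03 CPM in C13 with sham, 46.9, 27.9 and 26.8 CPM in DMSO with TDP-43 and 27.9, 43.9 and 27.2 CPM in DMSO with sham. The C13 groups were apart and the DMSO groups overlapped. In C13 its log2 fold change was 1.66 (edgeR, SE 0.44, adjusted p = 0.343), and 1.27 without C13 with sham replicate 3, its lowest library. Nascent Isg15 was 366, 519 and 331 CPM in C13 with TDP-43, 62.6, 149 and 3.97 CPM in C13 with sham, 182, 158 and 266 CPM in DMSO with TDP-43 and 162, 92.7 and 197 CPM in DMSO with sham. Again the C13 groups were apart, with a log2 fold change of 2.50 (edgeR, SE 0.84, adjusted p = 0.530), and 2.01 without that library.

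Dtx3l, a ubiquitin ligase that works with PARP9, had the smallest p of the members in nascent RNA of cells given C13. Its nascent level was 103, 227 and 344 CPM in C13 with TDP-43, 11.8, 44.2 and 23.8 CPM in C13 with sham, 149, 176 and 63.6 CPM in DMSO with TDP-43 and 52.0, 51.4 and 176 CPM in DMSO with sham. The C13 groups did not overlap and the log2 fold change was 3.07 (edgeR, SE 0.88, adjusted p = 0.530), while DESeq2 called it. Total Dtx3l was 77.4, 127 and 135 CPM in C13 with TDP-43 and 32.7 to 95 CPM in C13 with sham, which overlapped, with a log2 fold change of 0.98 (SE 0.35). This fold change was 0.70 without C13 with sham replicate 1 and 1.56 without C13 with sham replicate 3. Dtx3l and Parp9 overlap on opposite strands.

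In nascent RNA of cells given C13, 14 of 20 members had higher values with TDP-43 and the median log2 fold change was 1.20, beside 0.04 and 51.3% over all genes. It was 0.75 without C13 with TDP-43 replicate 3. No member and 0 (0%) of all genes were called by edgeR, with 598 at an unadjusted p under 0.05 and 77 called by DESeq2. There were 6 members that had an unadjusted p under 0.05 and a higher value (Dtx3l, Isg15, Oas3, Rsad2, Rtp4 and Xaf1), against 5.19% of all genes. Those without overlap were 8, Cxcl10, Dtx3l, Eif2ak2, Ifi35, Isg15, Oas3, Rsad2 and Xaf1, against 7.87% of all genes. Some of the largest values rest on few reads. Nascent Oas3, an enzyme that makes the signal molecule for RNase L, had 52 reads over C13 with TDP-43 and 1 over C13 with sham, with a 95% counting interval of 5.15 to 1206 for their ratio. Nascent Rtp4 had 182 reads and 2 reads there, a ratio of 52.5 (14.3 to 436), with 0 CPM in 1 of the C13 with TDP-43 libraries. Since all counts of Rtp4 were even, this interval understates its counting error. Total Samd9l, a protein that restricts poxviruses, had 112 and 2 reads, a ratio of 47.5 (12.8 to 397). The intervals of Oas3, Rtp4 and Samd9l pool the libraries of each group and leave out the spread between replicates.

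In cells given DMSO most members had smaller fold changes. The median log2 fold change was 0.33 in total RNA, with 27 of 41 members higher, beside -0.02 and 48.5% over all genes. Without DMSO with TDP-43 replicate 1 that median was 0.11. Neither members nor other genes were called by edgeR (0 and 0%), while 516 genes had an unadjusted p under 0.05 and DESeq2 called 8, none of them members. Cxcl10, Oasl1, Rsad2 and Rtp4 had an unadjusted p under 0.05 and a higher value, 4 members against 1.68% of all genes, and Eif2ak2 alone a lower value, against 2.68% of all genes. Libraries lay apart and higher for 5 members (Cxcl10, Ddx58, Gbp7, Irgm1 and Rsad2), against 5.49% of all genes, and apart and lower for 4 (Eif2ak2, Ifi27, Ifi35 and Ifit3b), against 6.41%. Total Rsad2 had a log2 fold change of 0.73 (edgeR, SE 0.26, adjusted p = 0.999) and total Cxcl10 0.93 (edgeR, SE 0.39, adjusted p = 0.999). Without DMSO with TDP-43 replicate 3, its highest library there, Cxcl10 had 0.64. Oasl1, an OAS-like protein that holds back translation of IRF7, had 58.9, 71.0 and 84.1 CPM in DMSO with TDP-43 and 27.8, 39.5 and 63.2 CPM in DMSO with sham, which overlapped, with a log2 fold change of 0.71 (SE 0.30). It was 0.47 without DMSO with sham replicate 1 and 1.07 without DMSO with sham replicate 3.

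Eif2ak2, the gene of the double-stranded RNA kinase PKR, ran the other way in DMSO. Its total level was 51.3, 44.1 and 36.6 CPM in C13 with TDP-43, 38.9, 38.5 and 16.3 CPM in C13 with sham, 28.9, 21.3 and 25.6 CPM in DMSO with TDP-43 and 38.4, 46.8 and 39.5 CPM in DMSO with sham. DMSO with TDP-43 lay below DMSO with sham in every library (log2 fold change -0.72, edgeR, SE 0.31, adjusted p = 0.999), while the C13 groups overlapped (0.50, SE 0.31). In nascent RNA of DMSO cells Eif2ak2 had a log2 fold change of -0.09 (SE 0.84).

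In nascent RNA of DMSO cells the members' median log2 fold change was 0.58 (14 of 20 higher), beside -0.04 and 48.2% over all genes. This median was 0.32 without DMSO with TDP-43 replicate 1 and 0.95 without DMSO with sham replicate 3. By edgeR 0 members and 0 (0%) of all genes passed, with 226 at an unadjusted p under 0.05 and 7 called by DESeq2. Rsad2 alone among members had an unadjusted p under 0.05 and a higher value (log2 fold change 1.51, edgeR, SE 0.55, adjusted p = 1.00), against 1.23% of all genes. No member's libraries lay apart and higher, against 3.74% of all genes. With nascent counts scaled to total library sizes instead, the median of all genes was -0.84 and that of the members -0.10, with 16 of 20 members above the median of all genes. The values of nascent Cxcl10, Isg15, Bst2 and Slfn2 changed sign under that scaling.

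**Figure D5:**
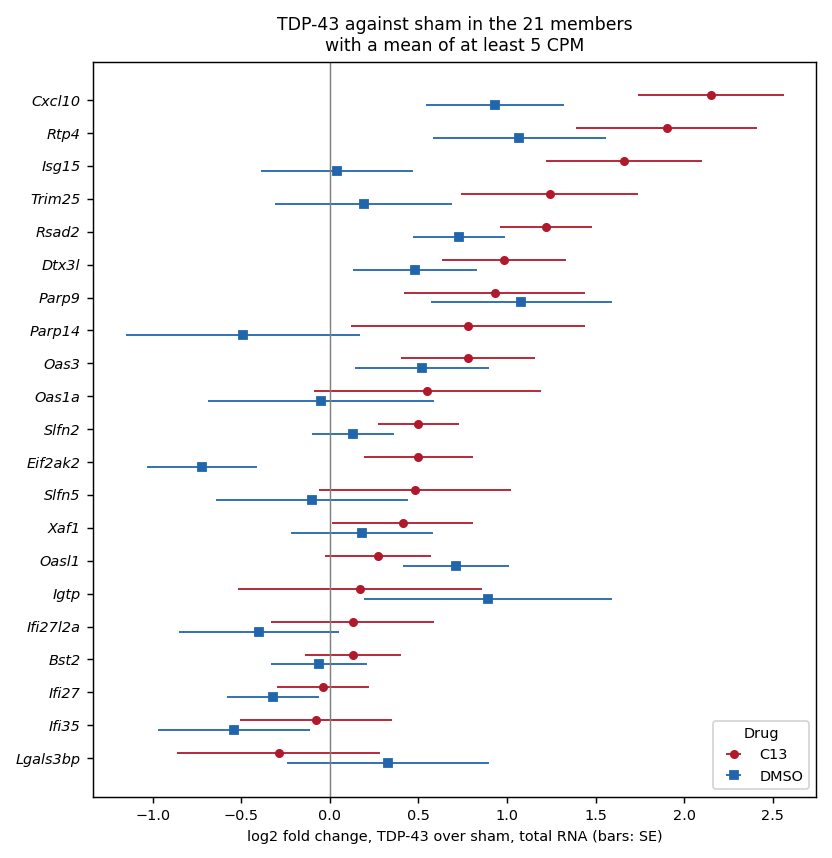
Log2 fold change of total RNA, TDP-43 over sham (x axis, bars are SE), in cells given C13 (circles) and DMSO (squares) for the 21 members with a mean of at least 5 CPM (y axis), ordered by the value in C13. The value was above 0 for 18 members in C13 and 13 in DMSO, and larger in C13 for 17; edgeR called no gene in either drug, while DESeq2 called Cxcl10, Isg15, Rsad2 and Rtp4 in C13.

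Whether the response to TDP-43 differed between the drugs was tested as an interaction. Most members had a larger fold change in C13 than in DMSO, with a median interaction of 0.45 on the log2 scale in total RNA (28 of 41 above 0), beside 0.01 and 50.7% over all genes. In nascent RNA it was 0.46 (13 of 20 above 0), beside 0.09 and 52.2%, and ran from 0.28 without DMSO with TDP-43 replicate 2 to 0.76 without C13 with sham replicate 3. EdgeR called 0 members and 0 (0%) of all genes in either table, with 941 total and 537 nascent genes at an unadjusted p under 0.05 and 108 and 46 called by DESeq2, none of them members. Cxcl10, Eif2ak2, Ifit3b and Isg15 had an unadjusted p under 0.05 and a higher value in total RNA, 4 members against 4.94% of all genes, and Dtx3l in nascent RNA, 1 member against 4.63%. The total interaction was 1.63 for Isg15 (edgeR, SE 0.61, adjusted p = 0.485), 1.22 for Eif2ak2 (edgeR, SE 0.44, adjusted p = 0.480) and 1.22 for Cxcl10 (edgeR, SE 0.55, adjusted p = 0.603). Without the 2 libraries that stood apart the interaction was 1.10 for Isg15, 0.93 for Eif2ak2 and 1.60 for Cxcl10, and for Cxcl10 it was 0.80 without C13 with TDP-43 replicate 3. Nascent Dtx3l had 2.59 (edgeR, SE 1.16, adjusted p = 0.630). All these comparisons share the same 12 libraries, so a low level in C13 with sham enters the response to TDP-43 in C13, the interaction and the comparison of the drugs with sham alike.

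C13 was compared with DMSO in cells given sham. The members went both ways, and their median log2 fold change was -0.13 in total RNA (15 of 41 higher), beside -0.01 and 49.2% over all genes. Leaving out C13 with sham replicate 1 gave a median of -0.36, and leaving out the 2 libraries that stood apart gave -0.28. EdgeR called 0 members and 0 (0%) of all genes, with 722 at an unadjusted p under 0.05 and 41 called by DESeq2. Cxcl10, Rsad2 and Rtp4 had an unadjusted p under 0.05 and a lower value, 3 members against 4.05% of all genes. Libraries of Cxcl10, Ifit3b, Irgm1 and Rsad2 lay apart and lower with C13, 4 members against 5.72%, and those of Ifi35 apart and higher, 1 member against 4.41%. By role, all tested IFIT proteins (4 of 4), antiviral enzymes (3 of 3), PARP and DTX3L genes (3 of 3, median -0.07) and ISG15-system genes (2 of 2) had lower total values with C13, while 4 of 6 tested GTPases had higher ones. In nascent RNA Rsad2, the one antiviral enzyme tested, had a higher value (0.31). In total RNA the log2 fold change was -1.42 for Rtp4 (edgeR, SE 0.50, adjusted p = 0.801; -0.94 without DMSO with sham replicate 1), -0.62 for Rsad2 (edgeR, SE 0.26, adjusted p = 0.801) and -0.90 for Cxcl10 (edgeR, SE 0.40, adjusted p = 0.803).

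In nascent RNA with sham, 10 of 20 members were higher with C13 and the median log2 fold change was -0.07, beside -0.04 and 48.3% over all genes. That median was -0.46 without the 2 libraries that stood apart, -0.60 without C13 with sham replicate 2 and 0.18 without DMSO with sham replicate 3. No member and 0 (0%) of all genes passed by edgeR, with 488 at an unadjusted p under 0.05 and 29 called by DESeq2. Dtx3l and Oas3 had an unadjusted p under 0.05 and a lower value, 2 members against 4.42%, and Dtx3l, Rtp4 and Xaf1 lay apart and lower, 3 members against 9.14% of all genes. Nascent Dtx3l had a log2 fold change of -1.80 (edgeR, SE 0.84, adjusted p = 0.716), and -1.04 without DMSO with sham replicate 3. With total library sizes as the scale, all nascent genes had a median of -1.02 and the members -0.90, with 1 of 20 members above 0 and 13 above the median of all genes.

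C13 was last compared with DMSO in cells given TDP-43, where the members again went both ways. The median log2 fold change in total RNA was 0.23 with 26 of 41 members higher, beside 0.00 and 49.6% over all genes. It was 0.11 without C13 with TDP-43 replicate 2 and 0.39 without DMSO with TDP-43 replicate 1. Again 0 members and 0 (0%) of all genes passed by edgeR, with 707 at an unadjusted p under 0.05 and 30 called by DESeq2. Eif2ak2, Ifi35 and Ifih1 had an unadjusted p under 0.05 and a higher value, 3 members against 3.48% of all genes. Libraries lay apart and higher for Eif2ak2, Ifi35, Ifih1, Ifit3b and Oas1a, 5 members against 6.97%, and apart and lower for Ifi204, Ifit2 and Irgm1, 3 members against 6.48%. Total Eif2ak2 had a log2 fold change of 0.80 (edgeR, SE 0.31, adjusted p = 0.833). Ifi35, a leucine zipper protein that binds NMI, had 5.95, 8.27 and 11.5 CPM in C13 with TDP-43 and 4.17, 4.68 and 4.70 CPM in DMSO with TDP-43, a log2 fold change of 0.92 (edgeR, SE 0.43, adjusted p = 0.833). Ifih1, the gene of the RNA sensor MDA5, had 137 reads over C13 with TDP-43 and 0 over DMSO with TDP-43. Against the 3 reads that a count of 0 allows over the group, it was at least 44.8-fold higher, though at 0.638 to 2.29 CPM. This bound pools the libraries of each group and covers counting error only, not the spread between replicates. Total Cxcl10 (0.32, SE 0.39) and total Rsad2 (-0.14, SE 0.26) had log2 fold changes smaller than their standard errors.

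In nascent RNA with TDP-43 the median over members was 0.24 (12 of 20 higher with C13), beside 0.02 and 50.9% over all genes. It was 0.05 without C13 with TDP-43 replicate 3 and 0.58 without DMSO with TDP-43 replicate 1. Here 0 members and 0 (0%) of all genes passed by edgeR, with 325 at an unadjusted p under 0.05 and 18 called by DESeq2. Eif2ak2, Ifi35 and Isg15 lay apart and higher, 3 members against 6.02% of all genes, and Bst2 apart and lower, 1 member against 4.34%. The smallest p-values were those of Igtp, a GTPase of the IRG family, with a log2 fold change of -3.63 (edgeR, SE 2.11, adjusted p = 0.998), Xaf1 with -1.69 (SE 1.24) and Isg15 with 1.01 (SE 0.80). Xaf1 had -0.20 without DMSO with TDP-43 replicate 3, its highest library, and Igtp had -7.06 without C13 with TDP-43 replicate 3, the 1 library of that group in which it had reads. Igtp shares exons with Irgm2 on the same strand.

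By role, the IFIT proteins, which bind viral RNA, were scarce. Total Ifit1 was 3.37, 5.40 and 0.783 CPM in C13 with TDP-43, 1.50, 2.01 and 0.115 CPM in C13 with sham, 5.19, 4.19 and 2.46 CPM in DMSO with TDP-43 and 4.09, 1.95 and 3.03 CPM in DMSO with sham. Groups overlapped in each drug, with an averaged log2 fold change of 0.90 (SE 0.69), and Ifit2 had 0.66 (SE 0.61). Ifit3 had 3.86, 2.68 and 4.44 CPM in C13 with TDP-43, 1.27, 1.61 and 0 CPM in C13 with sham, 3.41, 2.00 and 0.160 CPM in DMSO with TDP-43 and 1.52, 1.22 and 0.388 CPM in DMSO with sham, and an averaged log2 fold change of 1.38 (SE 0.99). It lay apart in C13 and overlapped in DMSO. Ifit3b, its near neighbour, had 1.17, 1.51 and 0.493 CPM in C13 with TDP-43, 0.289, 0 and 0 CPM in C13 with sham, 0.153, 0.188 and 0 CPM in DMSO with TDP-43 and 1.84, 0.514 and 0.466 CPM in DMSO with sham. These levels come from few reads.

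Of the ISG15 system, Usp18, the protease that removes ISG15 from proteins and restrains the interferon receptor, had 2.85, 2.38 and 3.28 CPM in C13 with TDP-43, 0.404, 5.54 and 0 CPM in C13 with sham, 2.85, 3.98 and 3.65 CPM in DMSO with TDP-43 and 9.31, 3.38 and 2.98 CPM in DMSO with sham in total RNA. These overlapped throughout, with an averaged log2 fold change of -0.03 (SE 0.86). Cmpk2, a mitochondrial nucleotide kinase whose gene neighbours Rsad2 and is read from the opposite strand, had 3.01, 3.44 and 5.57 CPM in C13 with TDP-43, 3.06, 2.47 and 0 CPM in C13 with sham, 3.00, 1.20 and 6.24 CPM in DMSO with TDP-43 and 1.36, 3.38 and 0.802 CPM in DMSO with sham. Groups overlapped in each drug and its averaged log2 fold change was 1.02 (SE 0.87). Isg20, an exonuclease, had 1.04 (SE 1.26).

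The OAS family senses double-stranded RNA. All 5 tested members had higher averaged values in total RNA, from 0.25 for Oas1a (SE 0.45) to 0.92 for Oas2 (SE 0.65) on the log2 scale. Oas3 was 19.3, 23.3 and 20.8 CPM in C13 with TDP-43, 7.74, 19.4 and 9.67 CPM in C13 with sham, 19.8, 18.2 and 17.8 CPM in DMSO with TDP-43 and 18.4, 11.5 and 9.09 CPM in DMSO with sham, an averaged log2 fold change of 0.65 (SE 0.27). One sham library reached into the TDP-43 range in each drug. Total Oasl1 had 41.8, 58.4 and 72.2 CPM in C13 with TDP-43 and 47.8, 50.5 and 44.9 CPM in C13 with sham, with an averaged log2 fold change of 0.49 (SE 0.21). Oas1a has a near-identical 3′ end in Oas1g, and Oasl2 had 0.28 (SE 0.85).

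Among the sensors of foreign nucleic acids, Trim25 was high and variable, with 412, 941 and 852 CPM in C13 with TDP-43, 252, 165 and 519 CPM in C13 with sham, 498, 378 and 531 CPM in DMSO with TDP-43 and 289, 159 and 788 CPM in DMSO with sham in total RNA. All its counts were even. The groups overlapped in each drug and its averaged log2 fold change was 0.71 (SE 0.35). In C13 it was 1.24 (SE 0.50), or 1.83 without the 2 libraries that stood apart and 0.94 without C13 with sham replicate 2. The RNA helicases Ddx58 (RIG-I, 1.15, SE 0.91) and Dhx58 (LGP2, 0.58, SE 1.74), and Ifi204 (0.06, SE 0.51), a DNA sensor, had the averaged values given, and Ifih1 had -1.82 (SE 1.51) on few reads. Zbp1, a sensor of Z-form nucleic acid, had 7 total reads.

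The GTPases were low. Gbp2, a guanylate-binding protein, had 0.643, 0.559 and 0.0290 CPM in C13 with TDP-43, 0, 0.604 and 0 CPM in C13 with sham, 0.967, 0 and 0.480 CPM in DMSO with TDP-43 and 0.570, 0.568 and 2.64 CPM in DMSO with sham. Irgm1, a regulator of the IRG GTPases, had 0.482, 0.839 and 0.580 CPM in C13 with TDP-43, 0.462, 0 and 0.597 CPM in C13 with sham, 2.14, 3.95 and 1.73 CPM in DMSO with TDP-43 and 1.20, 0.920 and 1.45 CPM in DMSO with sham. DMSO with TDP-43 lay highest, with averaged log2 fold changes of 0.98 (SE 0.91) for Irgm1 and -0.18 (SE 1.50) for Gbp2. Gbp3, Gbp7, Ifi47 and Igtp had 2.36 (SE 1.67), 0.74 (SE 0.97), 0.18 (SE 0.61) and 0.53 (SE 0.49), and Mx1 and Mx2 had 22 and 34 reads.

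Parp9, the partner of DTX3L, had 11.9, 28.3 and 44.4 CPM in C13 with TDP-43, 18.4, 7.96 and 18.1 CPM in C13 with sham, 35.8, 28.0 and 50.3 CPM in DMSO with TDP-43 and 10.2, 11.9 and 31.8 CPM in DMSO with sham, with overlap in each drug, an averaged log2 fold change of 1.01 (SE 0.36) and even counts throughout. Parp14 had 0.15 (SE 0.47). Of the secreted and surface proteins besides Cxcl10, Bst2 had 361, 343 and 249 CPM in C13 with TDP-43, 320, 380.3 and 173 CPM in C13 with sham, 294, 306 and 305 CPM in DMSO with TDP-43 and 276, 413 and 254 CPM in DMSO with sham. Bst2 overlapped in every comparison of total RNA, with an averaged log2 fold change of 0.03 (SE 0.19), and Lgals3bp had 0.02 (SE 0.40). Ifi27 overlapped in C13 and was lower in DMSO with TDP-43, with an averaged value of -0.18 (SE 0.18). The growth regulators Slfn2 and Slfn5 had 0.31 (SE 0.16) and 0.19 (SE 0.38), and Ifi35, Ifi27l2a and Ifi44 had -0.31 (SE 0.30), -0.14 (SE 0.32) and 0.05 (SE 1.34).

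Summed over the members without Ifi27, Trim25 and Bst2, total RNA was 681, 854 and 888 CPM in C13 with TDP-43, 444, 462 and 525 CPM in C13 with sham, 752, 625 and 719.5 CPM in DMSO with TDP-43 and 491, 511 and 622 CPM in DMSO with sham. With those 3 left out, TDP-43 libraries lay above sham libraries within each drug. In DMSO the margin was small, with a lowest TDP-43 sum of 625 CPM and a highest sham sum of 622 CPM. In nascent RNA the same sums were 2146, 3070.3 and 2916 CPM in C13 with TDP-43, 732, 1654 and 1409 CPM in C13 with sham, 2203, 2012 and 3199 CPM in DMSO with TDP-43 and 1298, 689 and 1660.3 CPM in DMSO with sham, which also lay apart. Over all members the sums overlapped except for total RNA in C13. Total RNA then summed to 2227, 2758 and 2478 CPM in C13 with TDP-43, 1533, 1963 and 1681 CPM in C13 with sham, 2038, 1718 and 2062 CPM in DMSO with TDP-43 and 1620.1, 1746 and 2202 CPM in DMSO with sham. Nascent RNA over all members ran from 2723 to 4573 CPM in C13 with TDP-43, 1836 to 3040.0 CPM in C13 with sham, 2710.0 to 4192 CPM in DMSO with TDP-43 and 1356 to 3179.8 CPM in DMSO with sham. The 3 were left out for their high levels, after these were seen, so the separation depends on that choice. In DMSO it also depends on Rsad2. With the level of Rsad2 taken off each sum, the DMSO groups overlap in total and in nascent RNA, while the C13 groups stay apart.

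The genes upstream of the members were read from a separate list of 25, of which 22 were in the tables. Ifnb1, the gene of interferon beta, and Ifna2 and Ifnab, of interferon alpha, had 0 reads in every library. In the averaged comparison 0 of 18 tested list genes were called in total RNA, with 8 higher and 10 lower, and 0 of 15 in nascent RNA, with 12 higher. Irf7, the factor that amplifies interferon production, had an averaged log2 fold change of 0.81 (SE 0.47) in total RNA, and Ikbke, a kinase that activates IRF3, had 0.46 (edgeR, SE 0.18, adjusted p = 0.948), or 0.29 without the 2 libraries that stood apart. Nascent Irf7 had counts summing to 75 over C13 with TDP-43 and 0 over C13 with sham. In DMSO its nascent groups overlapped (log2 fold change 0.58, SE 1.55), and with sham its libraries lay lower with C13 than with DMSO, also in total RNA (-1.64, edgeR, SE 0.68, adjusted p = 0.801). All counts of Irf7 and Irf9 were multiples of 3, so they may not be single reads, and no bound on the fold change of Irf7 is given. Irf9, which contacts the response element, averaged 0.22 (SE 0.24) in total RNA over differing values. It was 0.87 for TDP-43 in DMSO (edgeR, SE 0.35, adjusted p = 0.999), with libraries apart, and -0.42 in C13 (SE 0.35), with an interaction of -1.29 (edgeR, SE 0.49, adjusted p = 0.496). With sham it was 1.22 for C13 over DMSO (edgeR, SE 0.35, adjusted p = 0.655), again apart. Ifnar2 (0.08, SE 0.17), Ifnar1 (-0.35, SE 0.48) and Stat2 (-0.03, SE 0.61) had averaged total values within 1 standard error of 0.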

How the data were processed

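Total and nascent RNA of 12 libraries were read from deposited gene tables of read counts, which the authors made from 3′-end SLAM-seq reads. The submitters' processing notes name the build GRCm38, and no source used here gives the aligner or counter. Genes passing edgeR's filterByExpr (7078 nascent, 11827 total) were fitted with TMM scaling and 4 group means by edgeR 4.0.16 (quasi-likelihood, limma 3.58.1, R 4.3.3), with Benjamini-Hochberg adjustment over all tested genes and a threshold of 0.05. TDP-43 was set against sham on average and within each drug, C13 against DMSO within each aggregate, and the interaction was tested. DESeq2 1.42.0, other scalings and filters, a replicate block and left-out libraries were alternatives. CPM are counts over scaled library sizes, and few reads limit precision, most in nascent RNA. Members, lists and the preset genes named below were all chosen with earlier results of these data known. Genes described with full values were a preset set (Cxcl10, Isg15, Rsad2, Rtp4, Cmpk2, Ifit1, Ifit2, Ifit3, Usp18, Oasl1, Zbp1, Gbp2, Irgm1, Bst2 and Eif2ak2), the 3 members with the smallest p per comparison and table, and the 5 most abundant per table, and others were added after their values were seen. For the pathway, Ifnb1, Irf7, Stat2, Irf9, Ifnar1 and Ifnar2 were preset, and 1 further gene is not reported here. Replicate numbers did not pair libraries: correlations of same-numbered deviations ran from -0.0322 to 0.126. Replicates differed beyond sampling noise (lowest chi-square per degree of freedom 24.9).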

Additional observations from a re-analysis of the deposited data

Results flagged for a closer look

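Total Ifit3b, an RNA-binding IFIT protein gene, moved in opposite directions under the same contrast. With TDP-43 against sham its log2 fold change was 3.48 (SE 2.05) in cells given C13 and -3.00 (SE 1.98) in cells given DMSO, with no overlap of libraries in either. With C13 against DMSO it was 3.17 (SE 2.00) in cells given TDP-43 and -3.31 (SE 2.04) in cells given sham, again with no overlap. The difference, tested as the interaction, was 6.49 on the log2 scale (edgeR, SE 2.86, adjusted p = 0.586), and 5.30 without the 2 libraries that stood apart. Leaving out 1 library at a time gave 5.54 to 11.12, the highest without C13 with sham replicate 1. Levels were at most 1.84 CPM in any library, and several libraries had 0 reads.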

How the results depend on the processing

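Of the recomputed values of single genes, 934 kept their side of the threshold and 15 newly passed it. Counts of genes called at an adjusted p of 0.05 moved most. Without the filter on low counts they were, in nascent RNA, 18 for TDP-43 averaged over both drugs, 6 for TDP-43 in DMSO, 30 for TDP-43 in C13, 29 for C13 with sham, 10 for C13 with TDP-43 and 38 for the interaction, and in total RNA 33, 10, 124, 59, 33 and 124 for these comparisons. DESeq2 called 13, 7, 77, 29, 18 and 46 in nascent RNA and 33, 8, 99, 41, 30 and 108 in total RNA. Members called were 3 averaged (Cxcl10, Rsad2 and Trim25) and 5 in C13 (Cxcl10, Dtx3l, Isg15, Rsad2 and Trim25) in unfiltered total RNA. The 5 in C13 had the same fold changes as in the filtered fit, and the libraries of Dtx3l and Trim25 overlapped there. With DESeq2 they were 3 averaged, 4 in C13, and 1 in nascent RNA in C13. The replicate block gave 0 genes in nascent RNA averaged and 2 in the total interaction, and no member; the numbers did not pair the libraries. Dividing counts by their common factor, chosen after seeing the data, gave 0 and 2 genes there. Without the 2 libraries that stood apart, 1 gene was called in total RNA averaged and 1 in C13, as was 1 in C13 with the groups compared alone. Leaving out 1 library at a time gave 0 to 1 genes for nascent RNA averaged, in C13 and in the interaction, 0 to 1 for total RNA averaged, 0 to 4 in C13, 0 to 2 for C13 with sham and 0 to 3 for the interaction, and 0 members throughout. With total library sizes as the scale, the nascent members' median was -0.90 for C13 with sham and 1.60 for the interaction, where all nascent genes had -1.02 and 1.19, and it turned to -0.10 for TDP-43 in DMSO. The cause of these differences was not tested. Depth limits the nascent values most, with 27 members too low to test.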
